A study of Mus musculus with 12 samples.

Results

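Hedgehog signalling was read through 9 genes: the ligands Shh, Ihh and Dhh, the receptor chain Ptch1, Smo and Hhip, and the transcription factors Gli1, Gli2 and Gli3. They were taken by symbol from a table of 55487 mouse genes, each symbol had 1 row, and all 9 passed the filter on low counts that left 19890 genes for testing. Whole mouse kidneys taken on postnatal day 15 gave 12 RNA libraries, 3 in each of 4 groups. Libraries labelled Pkd1 KO and Cep120 KO are titled homo for Pkd1 or Cep120 in a Hoxb7 line, and their controls are titled het for the same gene in the same line. The genotype label of all 6 control libraries reads WT, so the titles and that label differ, and the het wording of the titles is used here. Hoxb7 drives expression in the ureteric bud lineage, which forms the collecting duct and ureter, so other kidney cells would keep the targeted gene. The design text asks which pathways change after loss of Cep120, a centriole assembly protein, and sets that model beside loss of Pkd1, which encodes the ciliary protein polycystin 1. The labels do not say whether a library is 1 animal or a pool, so p-values here reflect only how these libraries vary, which may be technical.

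Hedgehog ligands are secreted, lipid-modified proteins that bind the receptor Ptch1 and thereby release Smo, a membrane protein that Ptch1 otherwise holds inactive. Active Smo gathers in the primary cilium and shifts the balance of the Gli proteins from repression to activation. Gli1, Ptch1 and Hhip are themselves transcriptional targets, and Ptch1 and Hhip both take up ligand, which limits the signal. In kidney and ureter, Shh is made by collecting duct and ureter epithelium, and the mesenchyme around it, including future smooth muscle and Gli1-positive perivascular cells, receives it.

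Total counts ranged from 23070736 to 31837973 per library. The targeted genes were not lower in the libraries labelled KO. Cep120 ranged over 16.6 to 20.4 CPM, counts scaled to library size with edgeR's TMM factors, under the Cep120 KO label and over 13.7 to 18.7 CPM in the matching controls (log2 fold change 0.14, edgeR adjusted p = 0.835). Pkd1 ranged over 23.9 to 36.4 CPM under the Pkd1 KO label and over 13.9 to 21.6 CPM in the matching controls, which is higher and goes against that label (log2 fold change 0.74, SE 0.20, edgeR adjusted p = 0.00952). A gene total over whole kidney does not show whether an exon is deleted in 1 lineage, so these values do not check the labels. The libraries fell into 6 with 30321 to 32740 genes detected and 6 with 23544 to 25665. The first class held all 3 Cep120 KO libraries, Cep120 controls 1 and 2 and Pkd1 control 3. Xist, expressed from the inactive X chromosome of females, was under 1 CPM in all 3 Pkd1 KO libraries and in Cep120 KO 1 and 2, and was 50.0 to 184 CPM in the other 7. Xist and the KO label therefore cannot be told apart within the Pkd1 line. Pkd1 control 3, at 50.0 CPM of Xist, also held Y-linked RNA at 96.9 CPM, and Cep120 controls 1 and 2 and Cep120 KO 3 held both kinds as well, with Y-linked sums of up to 28.3 CPM. Pkd1 KO 3 also held adrenal cortex RNA, with 7 adrenal markers summing to 1843 CPM against at most 4.37 CPM in the other 11 libraries, and with Star at 269 CPM and Cyp11b1 at 438 CPM. Kidney identity was clear in the controls, where 8 proximal tubule markers summed to 4427 to 7672 CPM.

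Compared per transcript length, in the deposited TPM, Smo was the most abundant of the 9 genes in the Pkd1 controls at 10.1 ± 2.34 TPM (SD, n = 3). Ptch1 followed at 3.79 ± 1.71 TPM and Ihh at 3.27 ± 1.33 TPM, and these overlapped each other but neither overlapped Smo. The remaining genes lay at or below 0.699 TPM in every Pkd1 control. Their means were 0.561 ± 0.128 TPM for Gli3, 0.431 ± 0.194 for Hhip, 0.392 ± 0.256 for Gli1, 0.323 ± 0.218 for Dhh, 0.155 ± 0.0830 for Gli2 and 0.126 ± 0.0420 for Shh, and each overlapped its neighbour in that order. By RNA level Ihh was thus the leading ligand gene in these kidneys. In the libraries labelled Pkd1 KO the order changed below Ihh. Gli1 stood at 1.91 ± 0.402 TPM and moved from the sixth place to the fourth, above Gli3 at 1.34 ± 0.157 TPM and Hhip at 0.988 ± 0.173 TPM, without overlap between these 3 genes. Below Hhip and without overlap with it came Gli2 at 0.448 ± 0.0743 TPM, Shh at 0.425 ± 0.108 TPM and Dhh at 0.351 ± 0.169 TPM, which overlapped each other. The coding transcript of Hhip alone, at 0.390 to 0.521 TPM, overlapped Gli2, Shh and Dhh.

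**Figure D1:**
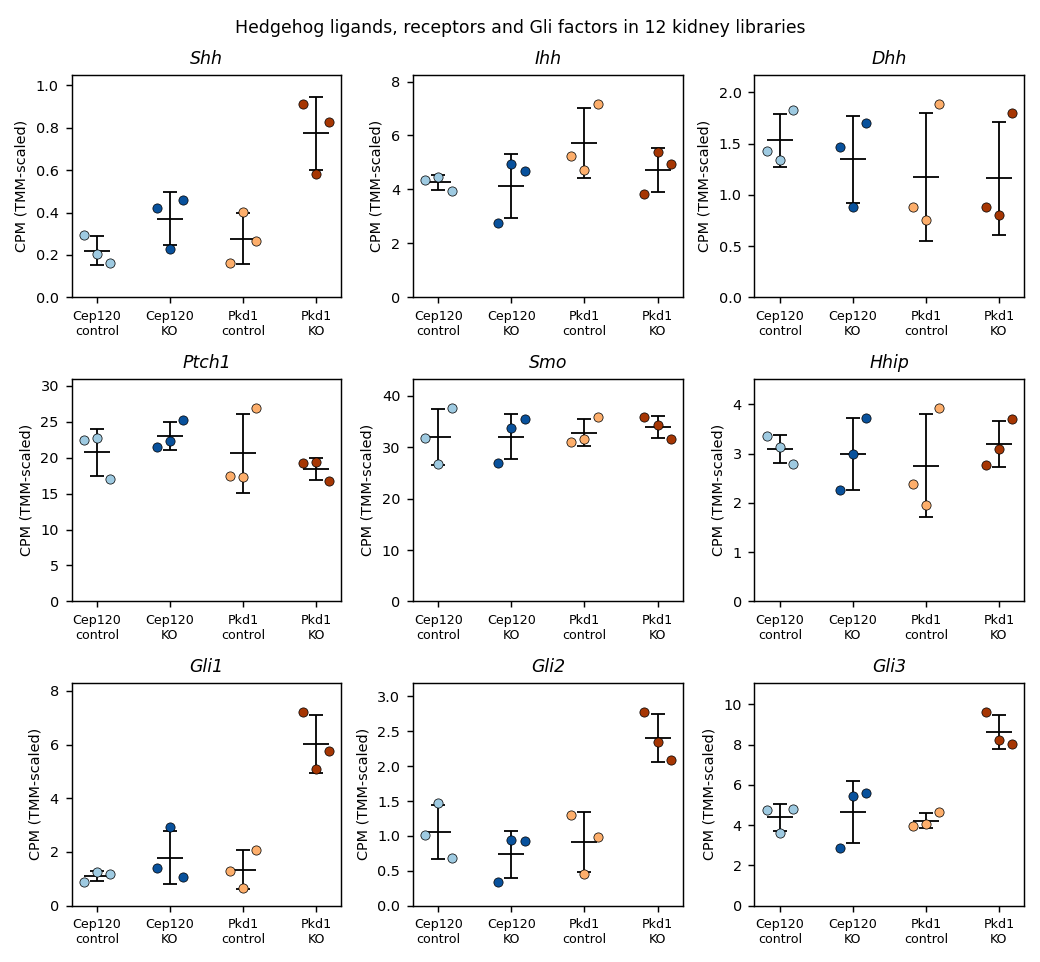
CPM of each of the 9 genes in 12 kidney libraries, with 1 point per library and a bar for the mean ± SD of the 3 libraries in a group. The Pkd1 KO points lie above all Pkd1 control points for Shh, Gli1, Gli2 and Gli3, and the groups overlap for the other 5 genes.

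The stretch upstream of 3 of these genes is shown because Gli2 and Gli3 rose together in the Pkd1 comparison while Ptch1, a receptor and target gene, was not called there. Each run is the 250 bases before the annotated start in RefSeq (GRCm38.p6), written 5′ to 3′ on the gene's strand, and capitals mark GGGTGG, the core of the Gli binding sequence, or its reverse complement CCACCC.
Gli2, chr1:119053620-119053869, minus strand: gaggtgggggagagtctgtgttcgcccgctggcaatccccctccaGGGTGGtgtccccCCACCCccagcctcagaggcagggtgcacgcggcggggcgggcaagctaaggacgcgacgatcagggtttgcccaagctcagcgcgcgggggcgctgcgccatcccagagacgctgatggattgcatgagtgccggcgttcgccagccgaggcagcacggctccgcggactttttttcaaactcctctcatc
Gli3, chr13:15463473-15463722, plus strand: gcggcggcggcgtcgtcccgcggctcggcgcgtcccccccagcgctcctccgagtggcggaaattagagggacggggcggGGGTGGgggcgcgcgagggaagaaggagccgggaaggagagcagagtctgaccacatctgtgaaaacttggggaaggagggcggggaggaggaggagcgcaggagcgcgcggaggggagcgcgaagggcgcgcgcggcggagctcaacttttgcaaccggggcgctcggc
Ptch1, chr13:63565736-63565985, minus strand: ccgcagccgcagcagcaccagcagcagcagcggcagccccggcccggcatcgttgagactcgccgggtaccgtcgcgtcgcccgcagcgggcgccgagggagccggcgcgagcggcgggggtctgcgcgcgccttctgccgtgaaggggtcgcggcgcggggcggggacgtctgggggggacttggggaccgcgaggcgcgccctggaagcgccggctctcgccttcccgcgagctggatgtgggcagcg
Promoters of 7 of the 9 genes were matched by symbol in RefSeq (GRCm38.p6), those of Gli1 and Shh were not, and windows of 300 bases were searched on both strands. The full 9-base sequence TGGGTGGTC was in none of the 7 windows, and in 0.253% of all 32851 promoters of that length. TGGGNGGTC, which includes it, was also in none of the 7, and in 0.977% of all promoters. The core GGGTGG, which lies within TGGGTGGTC, was in the windows of Ihh, Dhh, Smo, Hhip, Gli2 and Gli3 and not in that of Ptch1, and in 31.5% of all promoters. The 7 stretches upstream had a median GC content of 72%, and all promoters in the table had 52.4%. Genes that rose and genes that were not called both held the core, and a match of letters is not evidence of a bound site.

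In the libraries labelled Pkd1 KO, all 3 Gli genes were higher than in the Pkd1 controls, and the receptors and the ligands Ihh and Dhh were not called. Shh was called higher too, but it passed the filter on low counts through KO libraries alone, and without a filter it was not called (1.50, edgeR adjusted p = 0.174). With Shh this was 4 of 9 genes, or 44.4%, and 44.4% of all 19890 genes tested were called in this comparison (edgeR quasi-likelihood test, Benjamini-Hochberg adjusted p under 0.05). Over all genes, 22.1% were called higher and 22.4% lower, so the share of the 9 genes called matched the background, while none of the 9 was called lower. With log2(TPM + 0.1) or log2(TPM + 1) tested in limma, the split over all genes moved from 4388 higher and 4451 lower to 5504 and 2866 or to 5634 and 2689. The median log2 fold change of all genes was -0.04 on the count scale, and 0.16 or 0.11 on these TPM scales. In CPM the same 4 members, Shh among them, did not overlap between groups and lay higher in the KO libraries, against 27.4% of all genes. The median log2 fold change of the 9 members was 0.21.

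Gli1, the transcriptional activator whose own RNA is a standard readout of the pathway, was at 1.30, 0.653 and 2.08 CPM in Pkd1 controls 1 to 3. It was at 7.21, 5.09 and 5.74 CPM in the libraries labelled Pkd1 KO 1 to 3. Every KO library was above every control library, on 158 to 213 counts against 13 to 55. The log2 fold change was 2.14 (SE 0.43, edgeR adjusted p = 0.00138), or 4.41-fold. Nearly all of the Gli1 TPM came from 1 coding transcript, at 1.88 ± 0.405 TPM in KO and 0.392 ± 0.256 TPM in control libraries. The call was lost when Xist presence was a term in the fit, where the log2 fold change was 1.12 (SE 0.72, edgeR adjusted p = 0.351); the size of that term comes from the Cep120 KO libraries, the group in which Xist varied. Without Pkd1 control 3 the log2 fold change was 2.56.

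Gli3, which acts mainly as a repressor when the pathway is off, was at 3.94, 4.07 and 4.65 CPM in the Pkd1 controls. It was at 9.61, 8.25 and 8.04 CPM in the libraries labelled Pkd1 KO, again without overlap. The log2 fold change was 1.03 (SE 0.24, edgeR adjusted p = 0.00382), or 2.04-fold, and it passed the threshold under all 20 alternatives run for this comparison, the Xist term included (1.46, edgeR adjusted p = 0.0465). Of the 4 members that rose, Gli3 had the smallest SE.

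Gli2, the main activator early in the response, was at 1.30, 0.452 and 0.983 CPM in the Pkd1 controls and at 2.78, 2.35 and 2.08 CPM in the libraries labelled Pkd1 KO. The groups did not overlap, and the log2 fold change was 1.37 (SE 0.45, edgeR adjusted p = 0.0261). The call rested on low counts, 9 to 40 in controls and 58 to 82 in KO libraries. Among the fits that lost it were those without Pkd1 control 2 (1.07, edgeR adjusted p = 0.0876) or 3 (1.39, edgeR adjusted p = 0.0516), without Pkd1 KO 1 (1.24) or 2 (1.37), and with the Xist term (1.87, edgeR adjusted p = 0.184). The deposited transcripts listed for Gli2 held 0 to 43.4% of its gene TPM, so its rise could not be placed on a transcript.

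Shh, the ligand of collecting duct and ureter epithelium, had the fewest counts of the 9 genes in every control library. It stood at 0.163, 0.402 and 0.265 CPM in the Pkd1 controls, from 5 to 8 counts, and at 0.914, 0.580 and 0.826 CPM in the libraries labelled Pkd1 KO, from 18 to 27 counts. Its log2 fold change was 1.50 (SE 0.53, 95% interval 0.34 to 2.65, edgeR adjusted p = 0.0365). The count filter of 0.3726 CPM applies to CPM without the TMM factors, unlike the CPM values given here. Shh reached it in 3 Pkd1 KO and 2 Cep120 KO libraries and in no control, so it was tested only through the groups where it is high. The call was lost in 9 of 19 alternatives, among them the fit with no filter, the fit with the Xist term (edgeR adjusted p = 0.222) and each fit that left out 1 Pkd1 KO library, which gave log2 fold changes of 1.34, 1.65 and 1.43. The fits without Pkd1 control 1 (1.22) or 3 (1.46) lost it as well.

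The other ligand genes were not called. Ihh was at 5.24, 4.72 and 7.18 CPM in the Pkd1 controls and 3.83, 5.38 and 4.95 CPM in the libraries labelled Pkd1 KO, with a log2 fold change of -0.28 (95% interval -0.81 to 0.26, edgeR adjusted p = 0.379). Dhh, the ligand of Schwann cells, Sertoli cells and some endothelium, was at 0.879, 0.754 and 1.89 CPM in controls and 0.880, 0.805 and 1.79 CPM in KO libraries, a log2 fold change of -0.03 (95% interval -0.99 to 0.93). Its highest library in each Pkd1 group was number 3, and the interval leaves room for a change of nearly 2-fold either way. The 7 Schwann cell markers summed to 169 to 183 CPM in the Pkd1 KO libraries and 46.2 to 64.0 CPM in their controls, but the defining marker Sox10 had 3, 0 and 7 counts in the KO libraries and 0, 7 and 6 in the controls. The 7 endothelium markers went the other way, summing to 282 to 349 CPM in the Pkd1 KO libraries and 537 to 558 CPM in their controls. Of these 7, 6 were called lower.

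Among the receptors, Smo, the transducer, was the steadiest gene. It was at 31.1, 31.5 and 35.8 CPM in the Pkd1 controls and 35.9, 34.4 and 31.7 CPM in the libraries labelled Pkd1 KO, a log2 fold change of 0.05 (95% interval -0.25 to 0.35, edgeR adjusted p = 0.796). Ptch1 was at 17.5, 17.3 and 26.9 CPM in controls and 19.2, 19.4 and 16.7 CPM in KO libraries, a log2 fold change of -0.16 (95% interval -0.54 to 0.23, edgeR adjusted p = 0.492). Its sign depended on Pkd1 control 3, without which the value was 0.06. The upper bound for Ptch1 lies below the lower bound of 1.22 for Gli1, although both are known targets of the pathway, and the difference between the 2 genes was not itself tested.

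Hhip, the membrane-bound ligand trap, was at 2.38, 1.96 and 3.93 CPM in the Pkd1 controls and 2.78, 3.09 and 3.70 CPM in the libraries labelled Pkd1 KO. The log2 fold change on counts was 0.21 (95% interval -0.41 to 0.82, edgeR adjusted p = 0.579). On deposited TPM it passed the threshold, at 1.10 for log2(TPM + 0.1) (limma adjusted p = 0.043) and 0.48 for log2(TPM + 1) (limma adjusted p = 0.0249), where the median of all genes was 0.16 and 0.11. The transcripts show where the scales part. The coding transcript of Hhip was at 0.302, 0.213 and 0.585 TPM in controls and 0.390, 0.399 and 0.521 TPM in KO libraries, and these overlap. A processed transcript of Hhip with no annotated coding sequence was listed at 0.192, 0 and 0 TPM in controls and at 0.421, 0.598 and 0.635 TPM in KO libraries, from at most 13.7 estimated counts. The rise of Hhip on the TPM scale thus sits in a transcript supported by few reads.

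**Figure D2:**
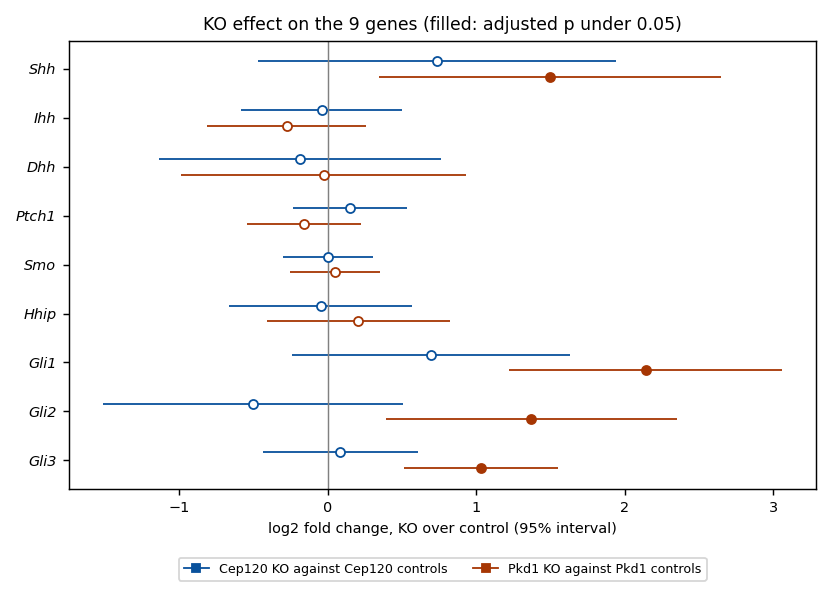
Log2 fold change of each gene, KO over control of the same line, with the 95% interval from the edgeR fit and filled points where the adjusted p is under 0.05. In the Pkd1 line the intervals of Gli1, Gli2, Gli3 and Shh lie above 0, and in the Cep120 line every interval spans 0.

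The Gli genes rose beside large shifts in cell type markers in the same libraries. The 10 fibroblast and pericyte markers summed to 1938 to 3035 CPM in the Pkd1 controls and 4608 to 7595 CPM under the Pkd1 KO label, where 8 of the 10 were called higher. The 8 smooth muscle markers summed to 377 to 584 CPM and 3067 to 4756 CPM, and 7 of 8 were called higher. No marker of either list was at 0 in any library. For Shh, the list nearest its known source, 8 principal cell markers, summed to 681 to 909 CPM in controls and 2240 to 4013 CPM in KO libraries, with 8 of 8 called higher. The 7 urothelium markers, for the other known source, summed to 81.8, 104 and 147 CPM in controls and 248.6, 33.1 and 38.6 CPM in KO libraries, with 0 of 7 called. That sum was lower than in every control in 2 KO libraries and higher than in every control in Pkd1 KO 1. In Pkd1 KO 1 to 3 Shh was at 0.914, 0.580 and 0.826 CPM, and the principal cell sum was 2240, 3014 and 4013 CPM. The 8 proximal tubule markers fell from 4427 to 7195 CPM to 433 to 632 CPM, with 8 of 8 called lower, and 7 of 7 macrophage markers were called higher. In whole kidney RNA, more cells of a type and more RNA per cell cannot be told apart. The part of these shifts in the Gli and Shh results was not tested.

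Outside the Pkd1 KO group, Gli1 was highest in Cep120 KO 2, at 2.93 CPM, and next in Pkd1 control 3, at 2.08 CPM. These were also the highest of those 9 libraries for the fibroblast and pericyte sum, at 3062 and 3035 CPM, and for the smooth muscle sum, at 825 and 584 CPM. In the other 7 of those libraries Gli1 was at 0.653 to 1.38 CPM. Gli2 was highest of those 9 in Cep120 control 2, at 1.47 CPM, where the fibroblast and pericyte sum was 1712 CPM. Gli3 was highest in Cep120 KO 3, at 5.61 CPM, where that sum was 1973 CPM. In Pkd1 KO 1 to 3 the fibroblast and pericyte sum was 7595, 5876 and 4608 CPM. The smooth muscle sum was 4756, 4221 and 3067 CPM there, and Gli1 was at 7.21, 5.09 and 5.74 CPM. In Pkd1 KO 3, the library with adrenal cortex RNA, Gli2 at 2.08 CPM and Gli3 at 8.04 CPM were the lowest of the 3 KO libraries, and Gli1 at 5.74 CPM lay between the other two. Without that library the log2 fold changes were 2.16 for Gli1 (edgeR adjusted p = 0.00360), 1.45 for Gli2 (edgeR adjusted p = 0.0406) and 1.07 for Gli3 (edgeR adjusted p = 0.0084), and Shh was no longer called (1.43, edgeR adjusted p = 0.0971).

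**Figure D3:**
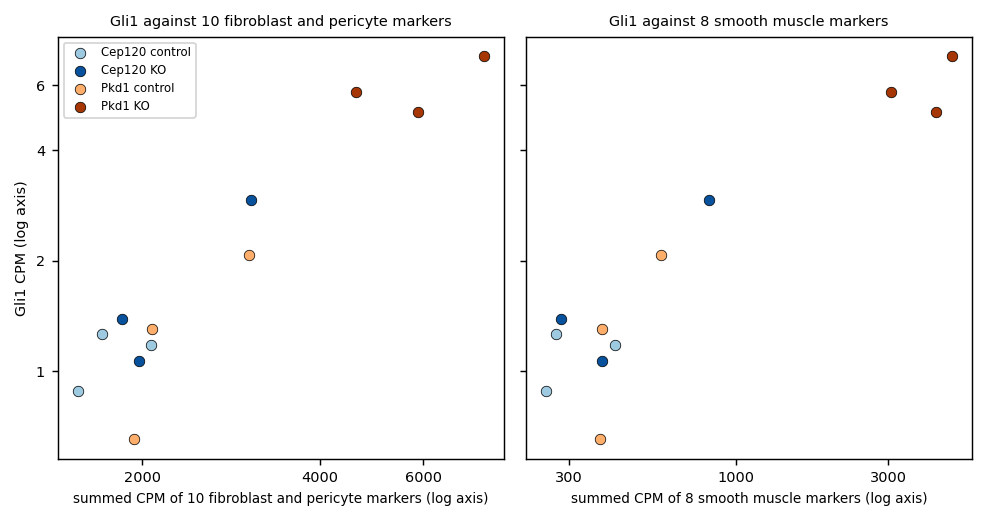
Gli1 CPM against the summed CPM of 10 fibroblast and pericyte markers (left) and 8 smooth muscle markers (right), both axes on a log scale, with 1 point per library. The 3 Pkd1 KO libraries lie at the upper right, and Cep120 KO 2 and Pkd1 control 3 are the next highest on each axis.

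The genes most like Gli1 in pattern were searched among 12177 autosomal genes, by Pearson correlation of log2 CPM over the 12 libraries. The 5 highest were Slit3 (r = 0.99), Fblim1 (0.984), Vcl (0.982), Cygb (0.981) and Rap2b (0.978). The 3 Pkd1 KO libraries stand apart from the other 9 in all of these, so the values rest largely on that step. After each group's mean was taken away, the genes among the 5 highest included Myh9 (0.957), Fkbp10 (0.956), Fbln1 (0.955) and Man1c1 (0.955). For Shh the 5 highest were Pgf (0.962), Snhg4 (0.927), Fam241b (0.901), Ercc1 (0.893) and Usf1 (0.893), and after the group means Pank1 (0.92), Liph (0.895), Pgf (0.868), Snhg4 (0.865) and Ppp1r14a (0.862). Depth, genes detected and tissue makeup differ between libraries, also within a group, and Shh has few counts, so these correlations are descriptions.

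Ptch1 also differed between libraries by the number of genes detected, a split that is not separate from the KO labels. Every Cep120 KO library was in the class with more genes detected and every Pkd1 KO library in the other. In the 6 libraries with 30321 or more genes detected it was at 21.5 to 26.9 CPM, and in the other 6 at 16.7 to 19.4 CPM, with no overlap. Of all genes tested, 7.19% lay higher in the first class without overlap and 2.1% lower, and Ptch1 was the only one of the 9 members among them. The split was placed in the gap between the classes after the data were seen. The listed transcripts held 78.2 to 97.8% of the Ptch1 gene TPM, and the rest could not be placed. A retained-intron transcript of Ptch1 was at 0.921 to 2.08 TPM in the first class and 0.0199 to 0.738 TPM in the second. That transcript also did not overlap between KO and control in either line, in opposite directions. It was at 1.67 to 2.08 TPM in Cep120 KO and 0.738 to 1.19 TPM in Cep120 control libraries. In Pkd1 KO libraries it was at 0.0199 to 0.412 TPM, against 0.462 to 1.39 TPM in Pkd1 controls. It rested on 1 to 98 estimated counts per library. The share of all transcripts that separate by class or by KO label was not computed, so these separations have no background beside them. A transcript marked for nonsense-mediated decay was at 0.425 to 0.612 TPM in the first class and 0.0491 to 0.284 TPM in the second. The main coding transcript listed overlapped, at 1.58 to 2.98 TPM and 1.53 to 2.51 TPM. With the class as a term in the fit, the Pkd1 value for Ptch1 was 0.05 (SE 0.12) and the Cep120 value -0.01 (SE 0.12). The size of that term comes from the control libraries, the groups in which class varied, so class and KO label cannot be fully told apart. What sets the classes apart was not tested.

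**Figure D4:**
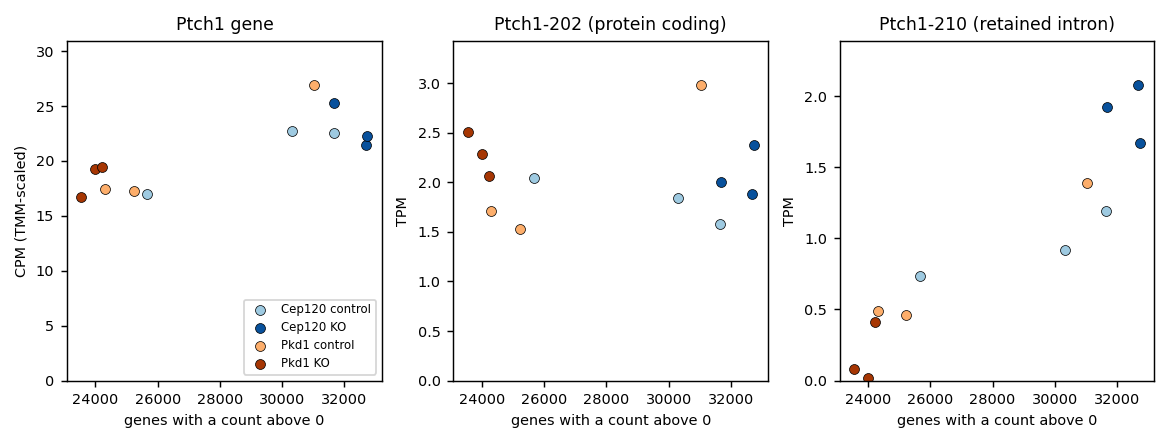
Ptch1 gene CPM (left), TPM of the main coding transcript listed (middle) and TPM of the retained-intron transcript (right) against the number of genes with a count above 0 in each library. The gene and the retained-intron transcript are higher in all 6 libraries with 30321 or more genes detected, and the coding transcript overlaps between the classes.

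In the libraries labelled Cep120 KO none of the 9 genes was called, and none of the 19890 genes was (0% called by edgeR, with 1201 genes, or 6.04%, at an unadjusted p under 0.05, and with 21 genes called by DESeq2 and 0 by limma voom). The median log2 fold change was 0.00088 over the 9 members and 0.01 over all genes, and 5 of 9 members were above 0. In CPM all 9 overlapped between KO and control, while 8.64% of all genes lay higher and 7.88% lower without overlap. On deposited TPM Ptch1 did not overlap, at 4.899 to 5.583 TPM in KO and 3.195 to 4.427 TPM in control libraries, and was not called there. Gli1 was at 1.38, 2.93 and 1.06 CPM in Cep120 KO 1 to 3 and 0.882, 1.26 and 1.18 CPM in Cep120 controls 1 to 3, a log2 fold change of 0.70 (95% interval -0.24 to 1.63, edgeR adjusted p = 0.757). Its size rested on Cep120 KO 2, and without that library it was 0.14. Shh was at 0.423, 0.228 and 0.461 CPM in KO and 0.294, 0.203 and 0.162 CPM in controls, a log2 fold change of 0.74 (95% interval -0.47 to 1.94, edgeR adjusted p = 0.773). Both intervals span 0 and reach above a 2-fold rise.

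Gli2 was at 0.346, 0.944 and 0.923 CPM under the Cep120 KO label and 1.01, 1.47 and 0.690 CPM in their controls, a log2 fold change of -0.50 (95% interval -1.51 to 0.50). Gli3 was at 2.88, 5.44 and 5.61 CPM in KO and 4.74, 3.62 and 4.79 CPM in controls, a log2 fold change of 0.08 (95% interval -0.44 to 0.61). Cep120 KO 1 was the lowest of the 12 libraries for both genes, and also for Ihh, at 2.77 CPM. The most precise values were those of Smo, at 0.00088 (95% interval -0.30 to 0.30), and Ptch1, at 0.15 (95% interval -0.23 to 0.53). Ihh gave -0.04 (95% interval -0.58 to 0.50), Hhip -0.05 (95% interval -0.66 to 0.57) and Dhh -0.19 (95% interval -1.13 to 0.76).

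Whether the KO effects of the lines differ was tested as the Pkd1 effect minus the Cep120 effect. Gli2 was the 1 member of 9 called, or 11.1%, and 28.1% of all genes were, 13.9% higher and 14.2% lower. Its difference was 1.88 (SE 0.65, edgeR adjusted p = 0.0470), and it combines the rise in the Pkd1 line with the lower mean in the Cep120 line. The call was lost in 16 of 25 alternatives, including each fit without 1 of the 3 Cep120 KO or 3 Pkd1 KO libraries, which gave differences of 1.55 to 2.08, and those without Cep120 control 1 (1.91) or 2 (1.57) or Pkd1 control 2 (1.58) or 3 (1.89). Gli3 gave 0.95 (SE 0.34, edgeR adjusted p = 0.0532) and passed the threshold in 4 of 25 alternatives, namely with DESeq2 (0.92, adjusted p = 0.0385), with limma voom (0.98, adjusted p = 0.0475), without Cep120 KO 3 (1.09, edgeR adjusted p = 0.0497) and with the Xist term (1.10, edgeR adjusted p = 0.0467). Gli1 gave 1.44 (SE 0.60, edgeR adjusted p = 0.0891). It passed the threshold in 5 of 25 alternatives. These were the fit with no filter, log2(TPM + 1) in limma, and the fits without Cep120 KO 2 (1.98), without Pkd1 control 3 (1.86) and without both replicate 3 controls. The remaining 6 differences lay between -0.31 for Ptch1 and 0.76 for Shh and were not called.

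Between the control groups none of the 9 genes was called, nor any of the 19890 (0% called by edgeR, with 834 genes, or 4.19%, at an unadjusted p under 0.05, and with 0 called by DESeq2 and by limma voom). Ihh was the member whose controls did not overlap, at 5.24, 4.72 and 7.18 CPM in the Pkd1 controls against 4.37, 4.48 and 3.94 CPM in the Cep120 controls, and 4.18% of all genes lay higher in that way. Its log2 difference was 0.43 (95% interval -0.11 to 0.97, edgeR adjusted p = 0.979). The other 8 members differed by -0.38 for Dhh to 0.30 for Shh.

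The rest of the pathway was described by 40 genes from textbook lists, of which 38 were tested. In the libraries labelled Pkd1 KO 10 were called higher and 5 lower, or 39.5% of 38 against 44.4% of all genes, and their median log2 fold change was 0.20. Of 5 genes for making and releasing ligand, 3 were higher. Scube3 rose by 2.15 (SE 0.30) and Scube2 by 1.83 (SE 0.28) on the log2 scale; Scube proteins help release lipid-modified ligand from the cell surface. Hhat, the enzyme that attaches palmitate to the ligands, rose by 0.77 (SE 0.15). Of 6 coreceptors and ligand-binding genes, 1 rose and 1 fell. Boc, a coreceptor that binds ligand together with Ptch1, was at 9.51, 7.18 and 10.7 CPM in the Pkd1 controls and 28.8, 25.7 and 27.2 CPM in the KO libraries, and its log2 fold change of 1.57 had an SE of 0.18 and an edgeR adjusted p of 2.56e-05. Lrp2, a large endocytic receptor that binds Shh and is also 1 of the 8 proximal tubule markers, fell by 2.72 on the log2 scale (SE 0.19).

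Of 19 genes that carry or restrain the signal, 4 rose and 3 fell in the libraries labelled Pkd1 KO. That is 36.8%, against 44.4% of all genes. Gpr161, a ciliary receptor that restrains the pathway, rose by 1.47 (SE 0.46), Arrb2, a beta-arrestin, by 1.18 (SE 0.19) and Evc2, which links Smo to the Gli proteins at the cilium base, by 0.62 (SE 0.16). The Gpr161 call was lost without Pkd1 control 1 (1.08), Pkd1 control 2 (1.36) or Pkd1 KO 3 (1.37) and with the Xist term (0.93). The calls for Arrb2 (0.60), Evc2 (0.26) and Hhat (0.66) were lost with the Xist term alone. Sufu, which binds and restrains Gli proteins, fell by 0.60 on the log2 scale (SE 0.11) and Tulp3, which carries receptors into cilia, fell by 0.64 (SE 0.13). Sufu and Tulp3 were not called on TPM, at -0.30 and -0.31 for log2(TPM + 0.1), nor with the Xist term, at -0.45 and -0.69. Of 8 target genes tested, 2 rose and 1 fell, or 37.5%, also below the 44.4% of all genes. Snai1, an epithelial-mesenchymal transition factor, rose by 0.47 (SE 0.15) and Ccnd1, cyclin D1, fell by 0.74 (SE 0.23), the latter with overlapping groups. Calls for Snai1 and Ccnd1 were lost in 8 and 7 of 20 alternatives, among them the fits without Pkd1 control 1, Pkd1 control 2, Pkd1 KO 1 or Pkd1 KO 2, which gave 0.38 to 0.47 for Snai1 and -0.68 to -0.61 for Ccnd1.

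In the libraries labelled Cep120 KO 0 of the 38 other pathway genes were called, with a median of 0.08 against 0.01 over all genes. Of the 38 genes, 4 lay higher and 2 lower without overlap, against 8.64% and 7.88% of all genes. The genes that lay lower were the target genes Ccnd1 and Mycn, at -0.48 (SE 0.23) and -0.40 (SE 0.22). Those that lay higher included Bcl2, also on the target list, at 0.30 (SE 0.14), and Hhat at 0.21 (SE 0.15). The Pkd1 effect exceeded the Cep120 effect for Boc, Scube2, Scube3 and Arrb2 and lay below it for Lrp2, Tulp3 and Sufu, which is 7 of 38, or 18.4%, against 28.1% of all genes.

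**Figure D5:**
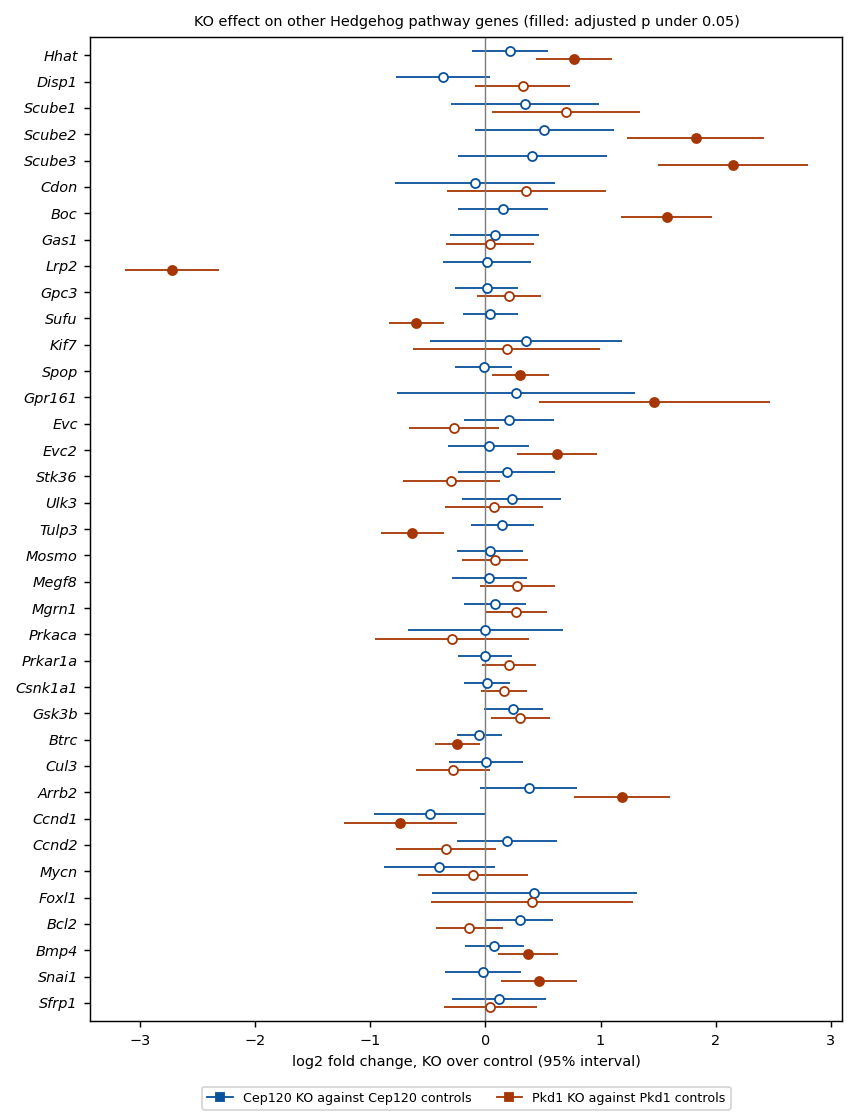
Log2 fold change, KO over control of the same line, of other Hedgehog pathway genes grouped by role, with 95% intervals and filled points where the adjusted p is under 0.05. Filled points occur in the Pkd1 line only, with Scube3 at 2.15 the highest and Lrp2 at -2.72 the lowest.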

How the data were processed

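Whole-kidney RNA was made into cDNA with a SMARTer Ultra Low kit, per the labels' protocols. STAR 2.5.1a, featureCounts 1.4.6-p5, Salmon 0.8.2 and the mouse build mm9 are named, per the submitters' processing notes, with no order. The deposited gene and transcript tables hold estimated counts, TPM and moderated log2 CPM made by the authors. The deposited estimated counts were rounded and 287 repeated lines dropped. Genes were kept by edgeR's filterByExpr (minimum count 10), scaled by TMM and fitted by edgeR 4.0.16's quasi-likelihood model over 12 libraries in 4 groups, with Benjamini-Hochberg adjustment over 19890 genes and a threshold of 0.05. The deposited TPM and the deposited log2 CPM were tested with limma 3.58.1 as alternatives. DESeq2 1.42.0, limma voom, other scalings and filters, a replicate block and leaving out libraries were the others. The scripts were tested on simulated data.

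The 9 members, the pathway list and the marker lists were chosen with earlier results of these data known. The text names all members, the 12 other pathway genes with the smallest p per comparison at most, and the 5 genes most like Gli1 and Shh, except that some genes the rule names are not reported here. Genes on the sex chromosomes, clone-named, mitochondrial and immunoglobulin genes were left out of that search. The closest pair of libraries, Cep120 controls 1 and 2, differed by more than sampling noise (chi-square per gene 5.8, against 28.6 to 76.7 for other pairs) and counted as 2. Protein sequences were not used here.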

Additional observations from a re-analysis of the deposited data

Results flagged for a closer look

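Differences between the KO effects of the lines, tested as the Pkd1 effect minus the Cep120 effect in the edgeR fit, passed the threshold for 8 Hedgehog pathway genes. These were 1 of the 9 members, or 11.1%, and 7 of the 38 other pathway genes tested, or 18.4%. Of all genes tested 28.1% passed it, so neither share exceeded the background. Gli2 differed by 1.88 (SE 0.65, edgeR adjusted p = 0.0470). Among the other pathway genes, Scube3 differed by 1.74, Boc by 1.42, Scube2 by 1.32 and Arrb2 by 0.81. Lrp2 differed by -2.74, Tulp3 by -0.78 and Sufu by -0.64. Boc, Lrp2 and Scube3 were called under all 25 alternatives run for this comparison, while Arrb2 was lost in 14 of them, Scube2 in 8, and Tulp3 and Sufu in 2 each, both on TPM.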

How the results depend on the processing

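For the 9 genes in 4 comparisons, 751 values were computed under alternatives. Of these 708 kept their side of the threshold, 32 lost the call, 11 gained it and none of the called values changed sign, while 72 values that were not called did. Terms for Xist and for detected-gene class, and dropping replicate 3 of both control groups, were alternatives added after seeing the data.

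The number of members called in the Pkd1 comparison, 4, fell to 2 with the replicate block, which lost Gli2 (1.36, edgeR adjusted p = 0.0538) and Shh (1.46, edgeR adjusted p = 0.0820), and to 1 with the Xist term, and ranged from 2 to 3 when 1 library was left out. The number called for the difference between the lines, 1, was 0 with upper quartile scaling, the replicate block, deposited log2 CPM and log2(TPM + 0.1), was 2 with DESeq2, limma voom, no filter or without both replicate 3 controls, and ranged from 0 to 1 when 1 library was left out. Deviations of same-numbered libraries from their group means were weakly correlated (r of 0.178, -0.054 and 0.148 in the Cep120 line and -0.096, -0.0432 and -0.136 in the Pkd1 line). Differently numbered pairs gave -0.2 to 0.11 in the Cep120 line and -0.0504 to 0.129 in the Pkd1 line. The values 0.178 and 0.148 lie above that range, so pairing in the Cep120 line is not settled. The main fit did not take the numbers to pair libraries.

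Over all genes, the Cep120 comparison called 0 and gave 21 with DESeq2, 344 with no filter, 1 without both replicate 3 controls and 0 to 2 when 1 library was left out. The comparison of Pkd1 KO against Pkd1 controls called 8839 and gave 2002 with the Xist term. The control comparison called 0 and gave 248 with no filter, 371 without both replicate 3 controls, 1 with the class term and 0 to 4 when 1 library was left out. The causes were not tested. Upper quartile scaling moved the split for the difference from 2764 higher and 2834 lower to 2221 and 3427. The median of all genes in the Cep120 comparison moved from 0.01 to 0.15 on deposited log2 CPM, 0.19 on log2(TPM + 0.1) and 0.12 on log2(TPM + 1). Depth limits Shh most, since its libraries hold 4 to 27 counts, and it did not pass a filter of 1 CPM in 3 libraries.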
